A study of Mus musculus with 12 samples.

Results

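Promonocytes, the immature cells of the bone marrow that give rise to monocytes, were followed in single-cell RNA sequencing of c-Kit+ marrow cells from 12 libraries, 1 for each of 4 mouse genotypes at 3 time points. A cell was counted as a promonocyte when it held at least 1 unique molecular identifier (UMI, one captured RNA molecule) of F13a1, at least 1 of Ms4a6c and at least 1 of Ly86 or Ccr2, with fewer than 1000 UMIs of the late granule genes S100a8, S100a9, Camp and Ngp together per 10000 UMIs. The rule found 2331 promonocytes among 32701 cells (7.13%), with 101 to 362 in each library. WT mice lacked the Cre transgene, E2-KO mice had lost floxed Ezh2 through Mx1-Cre, G12D mice expressed heterozygous NRas G12D from its own locus after Mx1-Cre removed a stop cassette, and G12D/E2-KO mice carried both changes. All mice were C57BL/6, and by the labels mice 8 to 12 weeks old received 5 injections of pIpC, the interferon inducer that turns Mx1-Cre on. A younger age at injection is given elsewhere in the text of the study. Marrow was collected 2 weeks (T1), 2 months (T2) or 4 months (T3) later. Mx1-Cre acts in blood cells and in other interferon-responsive tissues. As WT differed from the mutants in the Cre transgene as well as in the alleles, the parts of Cre and alleles in a difference shared by all 3 mutants cannot be told apart.

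Monocytes arise from granulocyte-monocyte progenitors (GMPs) through a proliferating promonocyte stage. The transcription factors PU.1 and IRF8 direct that path, the receptors CSF1R and FLT3 receive its growth signals, and CCR2 later lets the cells leave the marrow. Neutrophils branch from the same progenitors and load their primary granules with myeloperoxidase, elastase, proteinase 3 and cathepsin G. Ezh2 is the main catalytic subunit of Polycomb repressive complex PRC2, which methylates histone H3 lysine 27 and keeps developmental genes silent. NRAS is a membrane-bound switch of growth factor signalling, and its G12D form stays active.

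Each genotype and time point had a single library, so the 3 time points served as replicates of a genotype and as a block in the tests, and p-values measure the spread between these libraries. Library totals ranged from 12636998 to 23646292 UMIs, of which promonocytes contributed 773573 to 3992628, and levels are given as CPM, counts per 1000000 UMIs of the class in a library. Before counting, 2896 G12D T1 cells (51.3% of that table) that had a near-identical profile in the G12D/E2-KO T1 table were dropped from G12D T1, and the other 65 pairs of libraries held no such cells. Cell names carried a running index in place of a barcode, so shared barcodes could not be counted. Xist was at 1296 CPM or more in the T3 libraries of WT, E2-KO and G12D and at 0.608 CPM or less in the other 9. Sex therefore differed within T3, and the tests of genes below, but not the shares, levels or terciles, were refitted with the level of Xist and without T3.

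The markers that the rule did not use bore out the label in part. Irf8 stood at 334 CPM in promonocytes, 71.3 in GMP-type cells and 43.0 in all other cells, and a UMI of it was seen in 78.2 to 96.5% of promonocytes per library against 18.04 to 38.3% of GMP-type cells. GMP-type cells were the 6241 cells with a UMI of each of Mpo, Elane, Ctsg and Prtn3 that were not promonocytes, under the same granule limit. Their median depth was 5054 to 10758 UMIs per cell, against 7188 to 13090 in promonocytes. The receptor gene Csf1r was at 51.8 CPM in promonocytes, 13.1 in GMP-type cells and 4.67 in all other cells. Klf4, a factor of monocyte differentiation, was at 41.8 CPM in promonocytes, 3.89 in GMP-type cells and 2.27 in all other cells. Ly6c2, which encodes the Ly6C antigen, was high in both classes, at 3041 CPM in promonocytes, 1825 in GMP-type cells and 902 in all other cells. Of 18 monocyte markers outside the rule, 17 were above other cells and 12 were more than 1 log2 unit above, against 242 of the 8593 genes at 5 CPM or more. Because the cells were chosen by genes of the same counts, these differences are a description and were not tested.

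Genes of macrophages, granules and antigen presentation were also measured. Fcgr1, 1 of the 18 monocyte markers, was at 2.84 CPM in promonocytes, 0.370 in GMP-type cells and 0.381 in all other cells. The 10 macrophage markers summed to 24.6 CPM in promonocytes, 92.7 in GMP-type cells and 91.4 in all other cells, and 2 of them were above other cells. The macrophage gene Adgre1 was at 5.15 CPM in promonocytes. Lyz2, the lysozyme gene of mature myeloid cells, was at 1013 CPM in promonocytes, 372 in GMP-type cells and 2929.9 in all other cells. Primary granule genes remained high, with Mpo at 2053 CPM in promonocytes, 2968 in GMP-type cells and 924 in all other cells and Elane at 4772 CPM in promonocytes, 7256 in GMP-type cells and 2379.5 in all other cells, and UMIs of all 4 of Mpo, Elane, Ctsg and Prtn3 were found in 83.2 to 97.8% of promonocytes per library. The higher Mpo and Elane of GMP-type cells are set in part by the definition of that class. Cebpe, a factor of granulocyte maturation, was at 48.3 CPM in promonocytes, 224 in GMP-type cells and 319 in all other cells. Among MHC class II genes, the peptide-loading genes H2-DMa and H2-DMb1 stood at 113 and 44.5 CPM, while Cd74 and H2-Aa were at 22.9 and 8.82 CPM. The cells that met every marker condition numbered 2337, and 6 of them exceeded the granule limit. The member nearest the limit had 999 granule UMIs per 10000 and the next 895, and the nearest cells outside had 1012 and 1074, against a median of 52.0 among members.

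**Figure D1:**
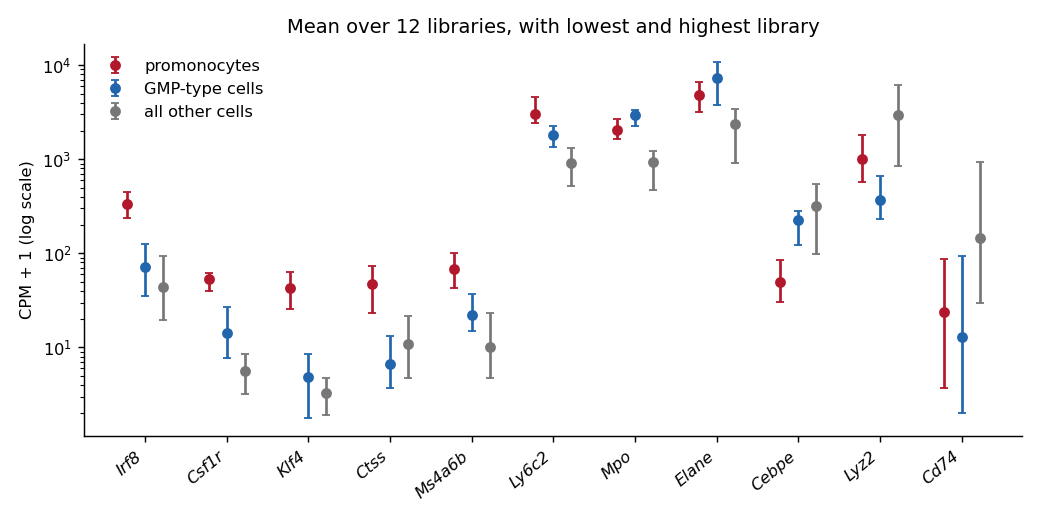
Mean CPM + 1 on a log axis over the 12 libraries for promonocytes, GMP-type cells and all other cells, with bars from the lowest to the highest library. Irf8, Csf1r, Klf4 and Ctss were highest in promonocytes, and Cebpe was lower in promonocytes than in GMP-type cells, which were defined by Mpo and Elane among others.

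Among genes at 50 CPM or more in promonocytes, ranked by the mean log2 ratio of their CPM to that in all other cells, the first 20 began with F13a1, which encodes the A subunit of coagulation factor XIII, Ms4a6c, a membrane protein of the MS4A family, Ly86, whose product MD-1 partners the receptor RP105, Ccr2, the receptor for the chemokine CCL2, and Irf8. The first 4 chose the cells, so their rank is fixed by the rule, and the other 16 were each higher in promonocytes in 12 of 12 libraries, as a description. The remaining members included Csf1r, Lgals1, Emb, Rassf4, Tifab, Pyhin1, Ms4a6b, Ctsc and the antisense gene Zeb2os. The promoters of the 4 genes that choose the cells are shown because they carry the definition of the class. The sequences are from RefSeq on GRCm38.p6, run 5′ to 3′ on the strand of the gene from 250 bases before the start to 50 after it, and capitals mark GAGGAA, the core bound by PU.1.
F13a1, first start (chr13:37050195-37050494, minus strand): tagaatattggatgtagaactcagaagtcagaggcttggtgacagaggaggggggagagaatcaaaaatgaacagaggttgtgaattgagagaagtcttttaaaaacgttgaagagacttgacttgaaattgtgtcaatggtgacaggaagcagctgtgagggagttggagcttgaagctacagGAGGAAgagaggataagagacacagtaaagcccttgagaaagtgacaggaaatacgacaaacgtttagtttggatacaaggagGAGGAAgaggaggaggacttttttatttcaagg
F13a1, second start (chr13:37049164-37049463, minus strand): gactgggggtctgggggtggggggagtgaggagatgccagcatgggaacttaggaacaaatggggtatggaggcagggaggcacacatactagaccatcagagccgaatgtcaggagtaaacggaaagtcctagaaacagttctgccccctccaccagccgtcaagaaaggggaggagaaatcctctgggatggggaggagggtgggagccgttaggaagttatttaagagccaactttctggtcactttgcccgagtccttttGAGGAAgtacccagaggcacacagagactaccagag
Ms4a6c (chr19:11469118-11469417, plus strand): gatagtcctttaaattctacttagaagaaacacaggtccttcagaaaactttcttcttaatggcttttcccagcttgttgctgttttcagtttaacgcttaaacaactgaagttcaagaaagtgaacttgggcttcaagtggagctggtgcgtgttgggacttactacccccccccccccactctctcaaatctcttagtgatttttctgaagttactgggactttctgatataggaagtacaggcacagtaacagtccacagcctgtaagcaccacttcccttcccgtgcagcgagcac
Ly86 (chr13:37345095-37345394, plus strand): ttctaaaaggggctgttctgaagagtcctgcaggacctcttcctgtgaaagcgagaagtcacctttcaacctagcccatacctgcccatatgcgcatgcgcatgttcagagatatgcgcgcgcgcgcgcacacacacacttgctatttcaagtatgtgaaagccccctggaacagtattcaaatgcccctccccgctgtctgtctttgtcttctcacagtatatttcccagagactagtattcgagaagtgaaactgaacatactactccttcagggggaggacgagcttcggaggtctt
Ccr2 (chr9:124101933-124102232, plus strand): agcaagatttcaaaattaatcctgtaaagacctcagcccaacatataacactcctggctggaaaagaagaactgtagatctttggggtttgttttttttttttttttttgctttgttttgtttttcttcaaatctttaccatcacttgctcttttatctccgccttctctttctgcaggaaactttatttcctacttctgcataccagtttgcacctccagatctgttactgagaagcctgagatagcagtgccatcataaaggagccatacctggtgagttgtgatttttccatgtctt
Both F13a1 starts had GAGGAA, at -66 and 18 from the first start and at 15 from the second. On either strand, GAGGAA, the IRF motif (GAAA, any 2 bases, GAAA), the ETS-IRF composite (GGAA, any 2 bases, GAAA) and the C/EBP motif TTGCNNAA were absent from the other 3 windows. Of all 32851 promoters, 28.28% held GAGGAA, 3.44% the IRF motif, 2.72% the ETS-IRF composite and 10.8% TTGCNNAA. Promoters were listed for 13 of the 20 marker genes, of which 4 held GAGGAA, 1 held TTGCNNAA and 0 held the IRF motif or the composite. The motifs overlap in their GAAA and GGAA parts, and a match describes letters only.

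Promonocytes varied along the primary granule genes. In each library the cells were split into terciles by their UMIs of Mpo, Elane, Ctsg and Prtn3 per 10000 (782, 777 and 772 cells in the low, middle and high tercile over the 12 libraries). The terciles are ranges along a continuum and not cell types, and the genes that set them rose by construction, as with Elane at 1192, 3886 and 8577 CPM. Ly6c2 followed, at 1811, 3121 and 3975 CPM, and so did Cd63, a granule membrane tetraspanin, at 27.5, 52.2 and 150.2 CPM, and Cebpe at 25.2, 36.6 and 78.5 CPM; each was lower in the low tercile in 12 of 12 libraries. Irf8 was nearly level at 341, 341 and 323 CPM.

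The summed level of the monocyte markers outside the rule rose with the granule genes, at 3202, 4068 and 4783 CPM, and was higher in the low than the high tercile in 0 of 12 libraries; Ly6c2 made up most of it. Without Ly6c2 the sum ran the other way, at 1391, 947 and 808 CPM, and was higher in the low tercile in 12 of 12 libraries. Summed lysosomal and phagocyte effector genes were at 8211, 6597 and 6367 CPM and higher in the low tercile in 12 of 12 libraries. Single genes also ran against the granule genes. Ccr2, a gene the rule used, was at 198, 118 and 83.9 CPM and Ctss, a cathepsin that trims the invariant chain, at 89.2, 35.6 and 23.4 CPM. Lgals3 (galectin-3) was at 303, 128 and 88.2 CPM and S100a4 at 94.9, 24.4 and 12.1 CPM. Ctss, Lgals3 and S100a4 were each higher in the low than the high tercile in 12 of 12 libraries. The low tercile also held Flt3, the receptor of dendritic precursors and early progenitors, at 26.2, 4.67 and 1.93 CPM, and Cd34, at 156, 113 and 88.9 CPM. Cd74, the invariant chain of MHC class II, was at 71.7, 2.60 and 3.96 CPM and was higher in the low tercile in 11 of 12 libraries. The sums of 20 S phase genes (2144, 2306 and 2126 CPM) and of 24 mitosis genes (2210.1, 2038 and 2199.8 CPM) were highest in the middle and in the low tercile, respectively. Median depth was 9142.5, 11101.2 and 11416.5 UMIs per cell, so the low tercile was also the shallowest, and the part of depth in these differences was not tested.

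**Figure D2:**
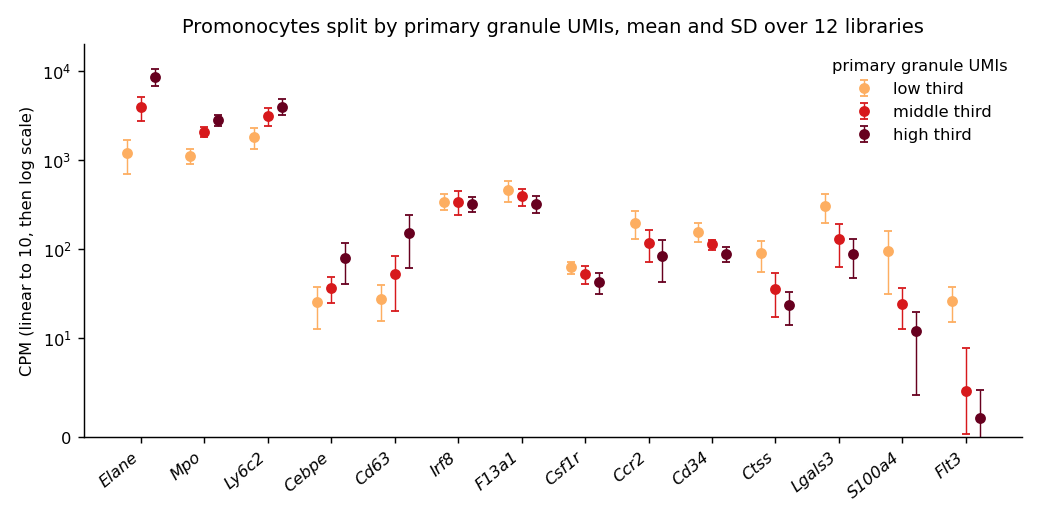
Mean CPM and SD over 12 libraries, on an axis that is linear to 10 and logarithmic above, in promonocytes with low, middle and high primary granule UMIs. Elane, Mpo, Ly6c2, Cebpe and Cd63 rise from left to right within each gene, Irf8 is level, and Ccr2, Cd34, Ctss, Lgals3, S100a4 and Flt3 fall.

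Promonocytes made up 4.98, 6.26 and 5.73% of cells in WT at T1, T2 and T3, and values of a genotype are given in this order from here on. G12D had 12.4, 7.13 and 14.2%, E2-KO had 7.20, 5.77 and 3.91%, and G12D/E2-KO had 6.34, 5.68 and 6.53%. The G12D mean was 11.2 ± 3.66%, against 5.66 ± 0.644% in WT, 5.63 ± 1.65% in E2-KO and 6.19 ± 0.447% in the double mutant (SD, n = 3). All 3 G12D libraries lay above the 3 WT and the 3 G12D/E2-KO libraries, while E2-KO T1 reached 7.20% and so overlapped G12D T2 at 7.13%. The libraries with NRas G12D averaged 3.06 percentage points above those without (p = 0.0926, exact two-sided permutation within time points, n = 6 against 6, smallest possible p = 0.00926). The Ezh2-deleted libraries averaged 2.54 points below the others (p = 0.25, the same exact permutation test). Neither difference passed 0.05.
Leaving out G12D/E2-KO T1 or T2 moved the NRas G12D difference to 3.54 points (p = 0.0463, exact permutation) or 3.67 points (p = 0.0278, exact permutation). Each of the other 10 libraries left out gave p of 0.0648 to 0.204 by the same exact permutation test, and without G12D T3 the difference was 1.97 points. Among cells under the granule limit, the share was 13.7 ± 6.58% with NRas G12D and 7.84 ± 1.85% without (SD, n = 6, exact permutation p = 0.0556), and 7.92 ± 2.14% with Ezh2 deleted and 13.6 ± 6.58% without (n = 6, exact permutation p = 0.0741). Promonocytes were deeper than the other cells, with a median of 7188 to 13090 UMIs in promonocytes against 3780.5 to 6975.5 in all cells. In cells of 5000 UMIs or more, each thinned to 5000, the NRas G12D difference was 3.47 points (p = 0.0833, exact permutation). This left out the shallower cells, 809 to 1008 per library in WT, 858 to 1718 in E2-KO, 952 to 1137 in G12D and 1084 to 2331 in G12D/E2-KO. Thinned to 1400 UMIs, with 0 cells left out, the difference was 0.379 points (p = 0.259, exact permutation), and thinned to 2000 UMIs, with 0 to 367 cells left out per library, it was 0.928 points (p = 0.0463, exact permutation). Thinning lowered the shares themselves, with 6 to 54 promonocytes per library at 1400 UMIs. With and without NRas G12D the shares were 8.705 and 5.642% unthinned, 1.714 and 0.786% at 2000 UMIs and 0.818 and 0.439% at 1400 UMIs.

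**Figure D3:**
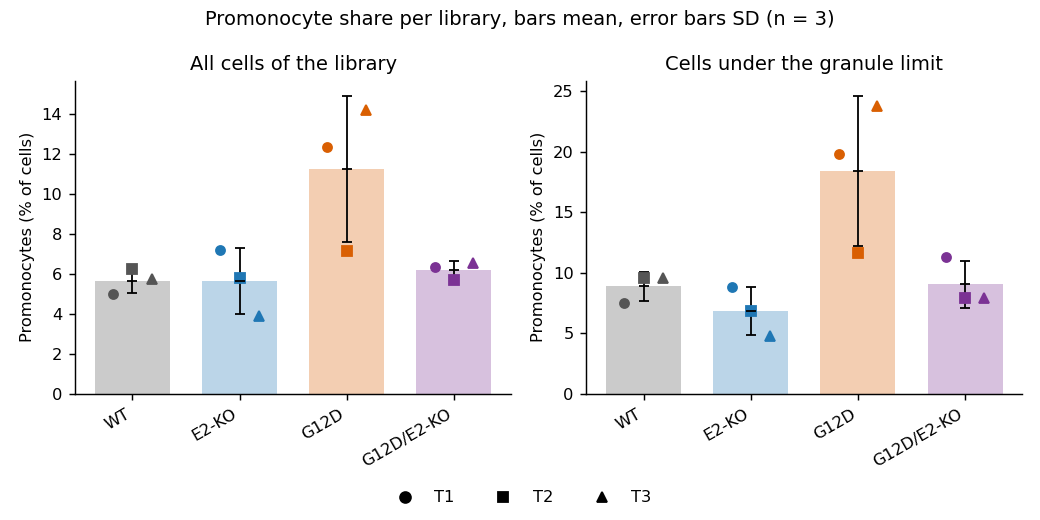
Promonocytes as a percentage of all cells (left) and of cells under the granule limit (right) by genotype, with a marker for each time point, bars at the mean and error bars of 1 SD (n = 3). G12D T1 and T3 stand at 12.4 and 14.2% of all cells, above every other library, and G12D T2 at 7.13% lies at the level of E2-KO T1.

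Loss of Ezh2 changed 428 of 8963 tested genes in promonocytes. Promonocyte counts were summed per library and tested with edgeR's quasi-likelihood test, as the mean of E2-KO minus WT and G12D/E2-KO minus G12D, with time point as a block and p-values adjusted over 8963 genes by the Benjamini-Hochberg method; changes are log2 ± SE. Ezh2 (chr6:47530139-47595341, minus strand, mm10) itself stood at 99.6, 88.4 and 84.3 CPM in WT and 88.2, 86.7 and 83.9 in G12D, against 14.9, 20.1 and 18.1 in E2-KO and 16.7, 15.3 and 11.2 in G12D/E2-KO. No deleted library overlapped an undeleted one (log2 change -2.50 ± 0.14, adjusted p = 1.8e-11). Where the counted 3′ tags lie relative to the floxed exons is not given in the sources used here. In all, 428 genes passed an adjusted p of 0.05 (4.78% of those tested), 240 higher (2.68%) and 188 lower (2.1%) after Ezh2 loss, and DESeq2 called 277, of which 257 were among the 428. The 428 included 1 gene among Xist, Tsix and the Y-linked genes. They also included Camp and Ly86, which the rule used to choose the cells. Both Ly86 and Ccr2 were seen in 29.8 to 45.1% of promonocytes in deleted and 46.0 to 72.5% in undeleted libraries. The part of this choice of cells in the shares and gene changes was not tested. The count was 240 without WT T3, 249 without E2-KO T1, 253 without G12D T1, 227 without G12D T2 and 254 without G12D/E2-KO T2. It was 253 in the tables as deposited and 276 without the time block, where Retnlg, Ypel3, Ctss, Myb, Lcn2, Ifitm2, Fosl2, Jarid2, Phc2, Tk1 and Cd79b, all described below, lost their calls.

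The genes that rose most included Bex4, Bex1 and Ncam1. Bex4, of the brain-expressed X-linked family, was at 3.76, 4.11 and 5.35 CPM in WT and 3.54, 3.47 and 1.503 in G12D, against 37.8, 28.1 and 34.9 in E2-KO and 21.6, 32.7 and 26.4 in G12D/E2-KO (log2 change 3.05 ± 0.22, adjusted p = 1.6e-09). Bex1, of the same family, was at 1.88, 5.75 and 4.01 CPM in WT and 2.45, 1.73 and 2.00 in G12D, against 26.1, 27.6 and 23.3 in E2-KO and 20.5, 26.7 and 19.1 in G12D/E2-KO (log2 change 2.91 ± 0.21, adjusted p = 1.6e-09). In both, each of the 6 deleted libraries lay above each of the 6 others. Ncam1, the neural cell adhesion molecule CD56, was at 2.82, 3.70 and 13.4 CPM in WT and 4.35, 5.20 and 4.76 in G12D, against 39.6, 55.7 and 46.5 in E2-KO and 31.1, 32.2 and 27.0 in G12D/E2-KO (log2 change 2.75 ± 0.24, adjusted p = 3.0e-07), with the highest undeleted library, WT T3, still below the lowest deleted one. Smaller gains included Cenpv (2.09), Tmem178 (1.95), Prkcb, a protein kinase C (1.87), and B4galt6, a galactosyltransferase (1.35). Lpl, lipoprotein lipase, was at 7.62 to 25.4 CPM in undeleted and 31.5 to 59.9 CPM in deleted libraries (log2 change 1.86 ± 0.21, adjusted p = 1.0e-05). Id2, an inhibitor of helix-loop-helix factors that favours dendritic and lymphoid fates, was at 28.2, 8.63 and 17.4 CPM in WT and 15.5, 10.4 and 18.3 in G12D, against 28.8, 25.4 and 42.7 in E2-KO and 44.8, 61.6 and 70.6 in G12D/E2-KO (log2 change 1.42 ± 0.20, adjusted p = 2.1e-04). The ranges overlapped in Id2, where WT T1 at 28.2 CPM exceeded E2-KO T2 at 25.4.

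Of 24 tested Polycomb genes, 3 rose and 2 fell, with a median log2 change of 0.03 against -0.01 over all genes, of which 4.78% passed. Ezh2, the deleted gene, was 1 of the 2 that fell. Bmi1 (chr2:18677018-18686629, plus strand), a subunit of the other complex, PRC1, was at 21.6, 18.1 and 23.4 CPM in WT and 17.4, 17.9 and 23.0 in G12D, against 72.0, 73.1 and 68.5 in E2-KO and 77.4, 78.5 and 99.6 in G12D/E2-KO (log2 change 1.92 ± 0.13, adjusted p = 2.7e-10). It rose in 6 of 6 time-matched pairs, and the deleted libraries began at 68.5 CPM where the others ended at 23.4. Phc2, another PRC1 gene (log2 change 0.68 ± 0.17, adjusted p = 0.021), and Jarid2, a PRC2 cofactor (log2 change 0.51 ± 0.15, adjusted p = 0.044), also rose, and Rbbp4, a histone-binding PRC2 subunit, fell (log2 change -0.43 ± 0.12, adjusted p = 0.028). The Phc2, Jarid2 and Rbbp4 calls were each lost in DESeq2 and without 4, 9 or 7 of the 12 libraries in turn.

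The monocyte genes Irf8, Cd68 and Ctss were lower. Irf8 (chr8:120736358-120756694, plus strand) was at 409.5, 391 and 379.9 CPM in WT and 426, 444 and 288 in G12D, against 295, 272 and 261 in E2-KO and 351, 238 and 252 in G12D/E2-KO (log2 change -0.52 ± 0.12, adjusted p = 0.008). Its values in G12D T3 (288 CPM) and G12D/E2-KO T1 (351 CPM) crossed, and the call was lost without G12D T2 (adjusted p = 0.061, log2 range over the libraries left out -0.61 to -0.45). Of 15 tested monocyte markers outside the rule, 0 rose and 3 fell, with a median log2 change of -0.17. Over all tested genes 2.68% rose and 2.1% fell, with a median of -0.01. Cd68, a lysosomal glycoprotein of phagocytes, was at 19.7, 25.1 and 22.1 CPM in WT and 27.8, 27.2 and 21.3 in G12D, against 9.45, 13.8 and 12.9 in E2-KO and 14.0, 9.81 and 8.58 in G12D/E2-KO (log2 change -1.11 ± 0.18, adjusted p = 4.1e-04), and no deleted library reached an undeleted one. Ctss was at 68.6, 37.0 and 42.8 CPM in WT and 73.2, 52.6 and 68.1 in G12D, against 22.1, 23.9 and 51.7 in E2-KO and 34.9, 32.2 and 52.8 in G12D/E2-KO (log2 change -0.75 ± 0.17, adjusted p = 0.012), with overlapping ranges, and its call was lost without E2-KO T1 (adjusted p = 0.058). With promonocytes chosen after thinning to 2000 UMIs (12 to 82 per library) and summed at full depth, the change of Ctss turned to 0.05. Csf1r (log2 change 0.02 ± 0.14, adjusted p = 0.96), Klf4 (log2 change -0.01 ± 0.16, adjusted p = 0.98) and Ly6c2 (log2 change -0.04 ± 0.13, adjusted p = 0.91) did not pass.

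The chemokine Ccl9 (chr11:83572919-83578636, minus strand) was at 205, 238 and 167 CPM in WT and 236, 206 and 202 in G12D, against 117, 105 and 90.5 in E2-KO and 68.7, 74.1 and 79.8 in G12D/E2-KO (log2 change -1.28 ± 0.10, adjusted p = 1.0e-08), the 1 of 5 tested inflammatory mediators that passed. Of all tested genes 4.78% passed. Arf5 (chr6:28423560-28426602, plus strand), a small GTPase of vesicle traffic, was at 343, 354 and 307 CPM in WT and 354, 359 and 285 in G12D, against 163, 164 and 145 in E2-KO and 157, 155 and 137 in G12D/E2-KO (log2 change -1.15 ± 0.10, adjusted p = 4.0e-08). In both genes the groups stood fully apart. Cd27, a TNF receptor family member of early progenitors, ranged from 21.3 to 40.4 CPM in undeleted and 8.17 to 19.6 CPM in deleted libraries (log2 change -1.09 ± 0.17, adjusted p = 2.0e-04). Cd93, a receptor of early myeloid cells, was the 1 of 23 tested surface receptor genes that passed, near the 4.78% of all tested genes. It was at 102 to 152 CPM in undeleted and 64.6 to 87.7 CPM in deleted libraries (log2 change -0.73 ± 0.11, adjusted p = 1.8e-04). Ms4a4b (-1.07), Klrb1f (-1.11), Ypel3 (-1.09), AW112010 (-1.05) and Sirt2, a deacetylase (-0.93), also fell, Ms4a4b as the 1 of 5 tested Ms4a family genes that passed. Ypel3 lost its call without any of 6 single libraries (log2 range -1.27 to -0.87).

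In the granule and lysosomal lists the members moved in both directions, where 4.78% of all tested genes passed. Of 24 tested lysosomal genes, Ctsc, the cathepsin that activates granule proteases, rose (log2 change 0.51 ± 0.14, adjusted p = 0.042) and Ctss and Cd68 fell. Of 11 primary granule genes, Ctsc and Srgn, the serglycin that packs granule contents (log2 change 0.45 ± 0.11, adjusted p = 0.017), rose. Of 12 secondary and tertiary granule genes outside the rule, Ltb4r1, a leukotriene B4 receptor, rose (log2 change 0.84 ± 0.19, adjusted p = 0.0085), while Retnlg (log2 change -1.89 ± 0.38, adjusted p = 0.03) and Lcn2 (log2 change -0.52 ± 0.12, adjusted p = 0.011) fell, the latter in 3 of 6 pairs. Retnlg was lost without any of 7 single libraries, Ctsc in DESeq2 and without any of 9, Srgn without any of 4, Ltb4r1 without WT T2 and Lcn2 without E2-KO T1. Fcnb, the ficolin of immature neutrophils, rose as well (log2 change 1.25 ± 0.16, adjusted p = 2.7e-05), as did Cd63 (log2 change 0.94 ± 0.13, adjusted p = 4.4e-05).

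In the remaining lists 0 to 3 members passed, where 4.78% of all tested genes did. Fosl2, an AP-1 factor, rose among 13 ERK output genes (log2 change 0.60 ± 0.17, adjusted p = 0.045), and of 22 RAS pathway genes Rras2 rose (log2 change 1.21 ± 0.28, adjusted p = 0.013) and Cap1 fell (log2 change -1.12 ± 0.22, adjusted p = 0.0044). Nras itself did not pass (log2 change -0.09 ± 0.11, adjusted p = 0.7). Myb, the progenitor factor, and Id2 rose and Irf8 fell among 18 myeloid factors, with Myb at a log2 change of 0.46 (adjusted p = 0.016). Of 22 interferon response genes Ifitm2 fell (-0.41), of 20 S phase genes Tk1 fell (-0.42) and of 24 mitosis genes Pttg1 rose (1.17). Of 10 stem and multipotent progenitor markers Adgrl4 fell (-0.76), and of 6 B lymphoid markers Cd79b fell (-0.47). Among these, the calls of Fosl2, Myb, Ifitm2, Tk1 and Cd79b were each lost without at least 6 of the 12 libraries in turn, Adgrl4 without any of 3 and Rras2 without any of 2, and Fosl2, Rras2, Tk1, Adgrl4 and Cd79b did not pass in DESeq2. MHC class II genes (8 tested), dendritic cell markers (4), CDK inhibitors (5), S100a genes (7), erythroid (12), megakaryocytic (2), T and NK (1), basophil (2) and macrophage markers (4) had 0 that passed.

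**Figure D4:**
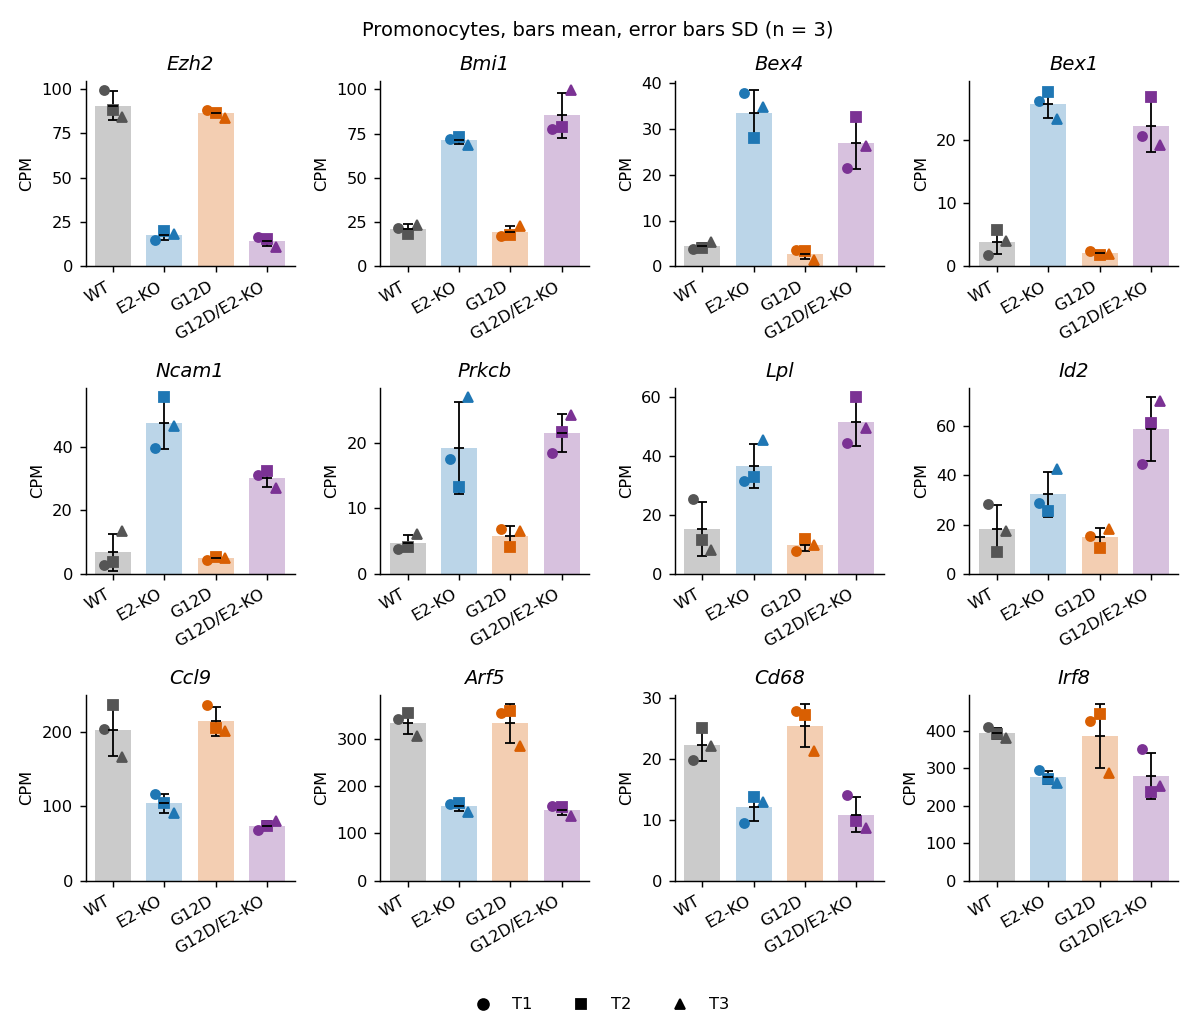
CPM of 12 genes in promonocytes by genotype, with a marker for each time point, bars at the mean and error bars of 1 SD (n = 3). Ezh2, Ccl9, Arf5, Cd68 and Irf8 are lower in E2-KO and G12D/E2-KO, and Bmi1, Bex4, Bex1, Ncam1, Prkcb, Lpl and Id2 are higher, with single libraries crossing in Irf8 and Id2.

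NRas G12D, compared as the mean of G12D minus WT and G12D/E2-KO minus E2-KO, changed 16 genes. At the same threshold 16 of 8963 passed (0.179%), 9 higher (0.1%) and 7 lower (0.0781%), DESeq2 called 22, and 527 had an unadjusted p under 0.05. Of the 16, 1 was among Xist, Tsix and the Y-linked genes. The count was 4 without WT T1, 9 without WT T2, 4 without WT T3, 8 without E2-KO T2, 7 without G12D T1, 6 without G12D T3, 8 without G12D/E2-KO T1, 8 without G12D/E2-KO T2 and 28 without G12D/E2-KO T3. It was also above 16 with the level of Xist as a covariate and without T3, as given at the end. The comparison shares its libraries with the Ezh2 comparison. Without the time block 0 genes passed in edgeR, with 476 at an unadjusted p under 0.05. Cd63 (chr10:128900989-128912822, plus strand) was at 51.7, 80.1 and 58.2 CPM in WT and 33.7, 68.2 and 29.8 in G12D, against 162, 171 and 95.7 in E2-KO and 63.7, 88.3 and 62.0 in G12D/E2-KO and was lower with NRas G12D in 6 of 6 pairs (log2 change -0.82 ± 0.13, adjusted p = 0.0051). Gm8730, a predicted gene whose counts are uncertain where reads fit a close copy, was at 1294 to 2083 CPM without and 1499 to 3716 CPM with NRas G12D (log2 change 0.79 ± 0.13, adjusted p = 0.0065). Ccdc85b was at 23.5, 19.3 and 19.4 CPM in WT and 40.01, 29.5 and 34.6 in G12D, against 27.5, 21.2 and 24.6 in E2-KO and 50.5, 29.97 and 44.9 in G12D/E2-KO (log2 change 0.74 ± 0.13, adjusted p = 0.017), and 1500011B03Rik at 17.5 to 27.1 CPM without and 23.98 to 77.2 with it (log2 change 1.01 ± 0.18, adjusted p = 0.017). In all 3 the T2 library was the lowest of its NRas G12D genotype. Id1, an inhibitor of helix-loop-helix factors, rose (log2 change 0.65 ± 0.14, adjusted p = 0.039) and Cd24a, a surface glycoprotein of progenitors, fell (log2 change -0.49 ± 0.10, adjusted p = 0.039).

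Of the fixed genes, Nras was at 55.6 to 75.1 CPM without and 61.2 to 77.02 CPM with the mutant allele (log2 change -0.04 ± 0.11, adjusted p = 1). This level counts both alleles and does not check the mutation. Irf8 did not pass (log2 change -0.03 ± 0.12, adjusted p = 1). Of 12 secondary granule genes Lcn2 rose (log2 change 0.63 ± 0.12, adjusted p = 0.021) in 4 of 6 pairs, and of 24 mitosis genes Pttg1 rose (log2 change 0.79 ± 0.15, adjusted p = 0.039) in 3 of 6. Of 6 B lymphoid markers Vpreb1 fell (log2 change -1.64 ± 0.29, adjusted p = 0.017). A Vpreb1 UMI was present in 1.46 to 23.9% of promonocytes and 2.05 to 19.6% of GMP-type cells per library, and the part of free RNA in this fall was not tested. Summed B lymphoid markers ranged over 52.2 to 115 CPM in WT and 104 to 140.5 in E2-KO, against 51.3 to 96.5 in G12D and 36.9 to 70.8 in G12D/E2-KO. The other 22 lists had 0 genes that passed, including 13 ERK output, 22 RAS pathway and 22 interferon response genes, where 0.179% of all tested genes did. The median interferon response gene was 0.73 higher, against 0.00 over all genes, and the summed level stood out in G12D T3 (5402 CPM) and G12D/E2-KO T1 (5154 CPM), against 1916 to 3265 CPM in the other 4 libraries with NRas G12D and 2148 to 2978 CPM in those without. G12D/E2-KO T3 was the lowest of the 12. Cd63 kept its call without each library in turn. Id1 lost its call without any of 11 of the 12 libraries, Cd24a and Pttg1 without any of 9, and Lcn2 and Vpreb1 without any of 7. Ccdc85b and 1500011B03Rik lost theirs without any of 6 and Gm8730 without any of 3, and Id1 did not pass in DESeq2.

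G12D/E2-KO was compared directly with WT because these mice carried both changes. The comparison passed for 153 genes (1.71%), 89 higher (0.993%) and 64 lower (0.714%), and DESeq2 called 120. Of the 153, 2 were among Xist, Tsix and the Y-linked genes. The count was 78 without WT T1, 38 without WT T3 and 74 without G12D/E2-KO T2. It was 98 without the time block, where Chaf1b, Irf5, Slc4a1 and Alas2 lost their calls. The largest changes included genes that passed for Ezh2 loss, namely Ezh2 (-2.65), Bex4 (2.55), Bex1 (2.35), Cenpv (2.32), Ncam1 (2.22), Prkcb (2.14), Tmem178 (1.99), Bmi1 (1.99), Lpl (1.86) and Id2 (1.79) on the log2 scale, with Cd27 (-1.64), Ccl9 (-1.49) and Arf5 (-1.20) lower. The same libraries enter both comparisons. Tmem178 lost its call without any of 4 single libraries and Id2 without WT T3.
Genes lower in all 3 pairs included others: Cd24a (log2 change -1.17 ± 0.14, adjusted p = 2.5e-05), Il3ra, the interleukin-3 receptor alpha chain (log2 change -1.08 ± 0.22, adjusted p = 0.0065), and Tgif1, a repressor of TGF-beta signalling (log2 change -1.11 ± 0.21, adjusted p = 0.0038). Il3ra was at 19.4, 18.5 and 13.2 CPM in G12D/E2-KO and 42.3, 29.2 and 37.5 in WT, without overlap, and lost its call without WT T3. Irf5, an interferon regulatory factor of inflammatory macrophages, rose (log2 change 0.93 ± 0.23, adjusted p = 0.037) from 16.9, 19.3 and 14.0 to 40.6, 29.97 and 31.0 CPM, and lost its call in DESeq2 and without any of 7 single libraries. Irf8 was lower in 3 of 3 pairs but did not pass (log2 change -0.55 ± 0.16, adjusted p = 0.095). Chaf1b, a chromatin assembly subunit (-1.08), Hist1h2bc (-1.24), Cd68 (-1.05) and Cd93 (-0.68) fell, and Ctsc rose (0.88). Of these, Cd68 lost its call without any of 7 of the 12 libraries, Chaf1b and Cd93 without any of 5, Ctsc without any of 4 and Hist1h2bc without any of 3. Chaf1b and Cd68 did not pass in DESeq2. Pttg1 (1.96) and Lyrm7 (2.52) rose. Lyrm7 was at 4.70, 3.29 and 2.68 CPM in WT and 19.6, 7.51 and 24.5 in G12D, against 20.7, 22.3 and 15.5 in E2-KO and 28.8, 18.5 and 15.2 in G12D/E2-KO, low in WT and higher in all 3 mutants, and lost its call without WT T3.

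Erythroid genes moved with this comparison. Of 12 erythroid markers tested, 3 fell, with Slc4a1, the red cell anion exchanger, at -2.29 and Alas2, the first enzyme of haem synthesis in red cell precursors, at -2.02, and a median over the list of -1.96. Over all tested genes 0.714% fell. Summed erythroid markers were 1677 to 7489 CPM in WT and 1232 to 5732 in E2-KO, against 736 to 997 in G12D and 746 to 973 in G12D/E2-KO. A UMI of the globin gene Hbb-bs was in 90.1 to 100% of promonocytes and 80.0 to 100% of GMP-type cells per library, at similar shares in both classes. Promonocytes with 50 or more haemoglobin UMIs per 10000 numbered 3, 0 and 1 in WT and 0, 0 and 7 in E2-KO. They numbered 0, 0 and 1 in G12D and 0 in each G12D/E2-KO library. After these cells were left out, Slc4a1 and Alas2 no longer passed the filter on low counts. With all promonocytes the calls of both were lost in DESeq2 and without at least 8 of the 12 libraries in turn, WT T1 and WT T3 among them. WT T1 stood apart in other lists too, with 666 CPM of megakaryocytic markers against 31.3 to 159 in the other libraries and 64.8 CPM of macrophage markers against 10.98 to 36.0. The part of erythroid RNA or of other cell types in the comparisons with WT was not tested.

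The interaction asked where G12D/E2-KO departed from the sum of the single effects (G12D/E2-KO minus E2-KO minus G12D plus WT). It passed for 6 of 8963 genes (0.0669%), 2 higher (0.0223%) and 4 lower (0.0446%), with 356 at an unadjusted p under 0.05 and 8 in DESeq2. The 6 included Xist, whose level follows sex. Pttg1 (chr11:43420250-43426251, minus strand), securin, which holds back the separation of sister chromatids until anaphase, was at 26.3, 49.7 and 42.8 CPM in WT and 156, 95.3 and 147 in G12D, against 199, 186 and 146 in E2-KO and 181, 161 and 152 in G12D/E2-KO (log2 change -1.93 ± 0.30, adjusted p = 0.018). WT was the lowest group, and the 3 mutant genotypes overlapped one another. Gdpd3, a phosphodiesterase of lysophospholipids, was at 16.0, 15.2 and 21.4 CPM in WT and 70.8, 76.8 and 67.1 in G12D, against 31.1, 31.8 and 73.7 in E2-KO and 49.3, 36.5 and 46.2 in G12D/E2-KO (log2 change -2.06 ± 0.37, adjusted p = 0.037), again with all 3 WT libraries below all mutants. Lcn2, the neutrophil lipocalin that binds siderophores, was at 198, 116 and 156 CPM in WT and 175, 90.1 and 161 in G12D, against 77.9, 58.3 and 50.4 in E2-KO and 219, 98.1 and 223 in G12D/E2-KO (log2 change 1.44 ± 0.24, adjusted p = 0.012), lower in E2-KO than in every other library. Mgl2 (log2 change -2.42) and Mid1 (3.82), named after their values were seen, were the other 2 that passed. The calls of Pttg1, Gdpd3 and Lcn2 were each lost without at least 4 of the 12 libraries in turn (log2 ranges -2.19 to -1.65 for Pttg1, -2.33 to -1.64 for Gdpd3 and 1.29 to 1.71 for Lcn2), and the count of genes was 2 without WT T2, 0 without WT T3, 3 without E2-KO T1, 2 without E2-KO T2, 3 without G12D T3, 11 without G12D/E2-KO T1, 3 without G12D/E2-KO T2 and 12 without G12D/E2-KO T3. Without the time block 1 gene passed, Pttg1, and Lcn2 and Gdpd3 lost their calls. Of the 25 lists, mitosis genes and secondary granule genes each held 1 that passed, and the other 23 held 0.

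The GMP-type cells of the same libraries showed where an effect differed between the classes. A cell that missed the promonocyte rule but held Mpo, Elane, Ctsg and Prtn3 was counted as GMP-type. With 2 or more F13a1 UMIs required, WT T1 went from 117 to 93 promonocytes and from 287 to 308 GMP-type cells. Both Ly86 and Ccr2 were seen less often in promonocytes of deleted libraries, as given above. The part of such cells in the class differences was not tested. The Ezh2 effect in promonocytes minus that in GMP-type cells passed for 54 of 9870 genes (0.547%), 29 higher (0.294%) and 25 lower (0.253%), and DESeq2 called 25. The count was 32 without G12D T1 and 88 without G12D/E2-KO T1. It was 25 in the tables as deposited and 5 without the block, where of the genes named here only Ncam1, Cd63 and Slpi kept their calls. The change of Cd63 was higher in promonocytes than in GMP-type cells (difference 0.98 ± 0.09, adjusted p = 1.7e-10, 6 of 6 pairs). In GMP-type cells it was at 346, 518 and 334 CPM in WT and 411, 599 and 241 in G12D, against 542, 537 and 276 in E2-KO and 362, 419.7 and 242 in G12D/E2-KO. Promonocytes had Fcnb at 17.8, 13.2 and 22.7 CPM in WT and 36.7, 36.4 and 21.0 in G12D, against 61.2, 55.1 and 53.0 in E2-KO and 71.7, 54.0 and 46.8 in G12D/E2-KO. GMP-type cells had it at 144, 150.1 and 102 CPM in WT and 187, 262 and 108 in G12D, against 207, 181 and 137 in E2-KO and 229.6, 182 and 151 in G12D/E2-KO (difference 1.02, adjusted p = 2.3e-05). Cebpe (0.61), Rgcc (0.76), Anxa1 (0.62) and Cited4 (1.08) also had the higher change in promonocytes, and so did Bex4 (2.02), Ncam1 (1.46), Cenpv (1.27) and B4galt6 (0.65). With cells chosen after thinning to 2000 UMIs (12 to 82 promonocytes per library) and summed at full depth, Cebpe turned to -0.17 and Cited4 to -0.71. Cpa3, a mast cell protease (1.497), rests on 0.578 to 6.75 CPM in promonocytes, lost its call without any of 8 libraries and turned to -1.98 in the cells so chosen. Zbp1, a nucleic acid sensor (1.47), lost its call without any of 3. Of 28 tested interferon response genes, Zbp1 was the 1 that passed. DESeq2 gave no adjusted p for Bex4, Cenpv, Cited4, Cpa3 and Zbp1.

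The Ezh2 effect was lower in promonocytes than in GMP-type cells for Fcer1g, Tyrobp, Cd93 and Cxcr4. Of 15 monocyte markers and 4 macrophage markers 0 passed, where 0.547% of all tested genes did, and their median differences were -0.24 and 0.27. Promonocytes had Fcer1g, the Fc receptor gamma chain, at 830.3, 645 and 872 CPM in WT and 898, 800.2 and 828 in G12D, against 684, 609.5 and 760.1 in E2-KO and 868, 705 and 349.6 in G12D/E2-KO. GMP-type cells had it at 301.1, 182 and 209 CPM in WT and 245, 212 and 248 in G12D, against 275, 293 and 266 in E2-KO and 362, 364 and 164 in G12D/E2-KO (difference -0.63, adjusted p = 0.0047). Tyrobp (DAP12), a partner of such receptors, differed by -0.37 (adjusted p = 8.6e-05), Cd93 by -0.47 and Cxcr4, the marrow-retention receptor, by -0.40. These 4 were the surface receptor genes that passed, of 25 tested, with a median difference of -0.16. Slpi, a leukocyte protease inhibitor, was at 471 to 631 CPM in deleted and 764 to 1058 CPM in undeleted promonocytes (difference -0.79, adjusted p = 0.002). Ctsh (-0.76), a cathepsin, and Ncf1 (-0.36), a subunit of the phagocyte oxidase, were the 2 of 24 lysosomal and effector genes that passed. Rassf4 (-0.68), Acaa1a (-0.53), Txndc5 (-0.52), Anxa5 (-0.51) and Anxa2 (-0.46) completed the named genes. Of the genes on this side, Rassf4 (adjusted p = 0.062), Acaa1a (0.29), Txndc5 (0.099), Anxa2 (0.076), Ncf1 (0.3), Cd93 (0.051) and Cxcr4 (0.1) did not pass in DESeq2. With cells chosen after thinning to 2000 UMIs, Rassf4 turned to 0.13 and Anxa2 to 0.05. Single libraries ended calls as follows: WT T2 for Cebpe, B4galt6 and Cd93, G12D T2 for Fcer1g, WT T2, G12D T1 or G12D/E2-KO T2 for Cxcr4, E2-KO T1 or G12D/E2-KO T2 for Anxa2, G12D/E2-KO T2 for Rassf4, E2-KO T2 or G12D T1 for Txndc5, and 7 and 9 libraries in turn for Acaa1a and Ncf1. Ezh2 itself did not pass for a class difference.

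For NRas G12D the class difference passed for 17 genes (0.172%), 12 higher (0.122%) and 5 lower (0.0507%), and DESeq2 called 4. The count was 5 without E2-KO T1, 9 without E2-KO T2, 35 without G12D T2, 6 without G12D T3 and 10 without G12D/E2-KO T3. The change of Cd63 was lower in promonocytes than in GMP-type cells (difference -0.63 ± 0.09, adjusted p = 1.5e-04), and so were those of Tgif1 (-0.78), Pan3 (-0.51) and Rpl3 (-0.21). Higher in promonocytes were Chchd10, a mitochondrial protein (0.60), Tmem14c, a mitochondrial membrane protein of haem synthesis (0.40), Ccnd3, cyclin D3 (0.37), Tmem238 (0.55), Cdv3 (0.41) and Eef1e1 (0.38). Without the block 0 genes passed in edgeR, with 305 at an unadjusted p under 0.05. Of the named genes only Cd63, Chchd10 and Tmem14c passed in DESeq2, and Tgif1 (adjusted p = 0.34), Pan3 (0.5), Rpl3 (0.5), Ccnd3 (0.95), Tmem238 (0.95), Cdv3 (0.34) and Eef1e1 (0.5) did not. With cells chosen after thinning to 2000 UMIs, Pan3 turned to 0.02. Cd63, Tgif1 and Chchd10 kept their calls without each library in turn, and Tmem14c lost it without E2-KO T1. Ccnd3 and Tmem238 lost theirs without any of 9 of the 12, Rpl3 without any of 8, Pan3 and Eef1e1 without any of 5 and Cdv3 without any of 3. None of the genes in the 25 lists passed.

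**Figure D5:**
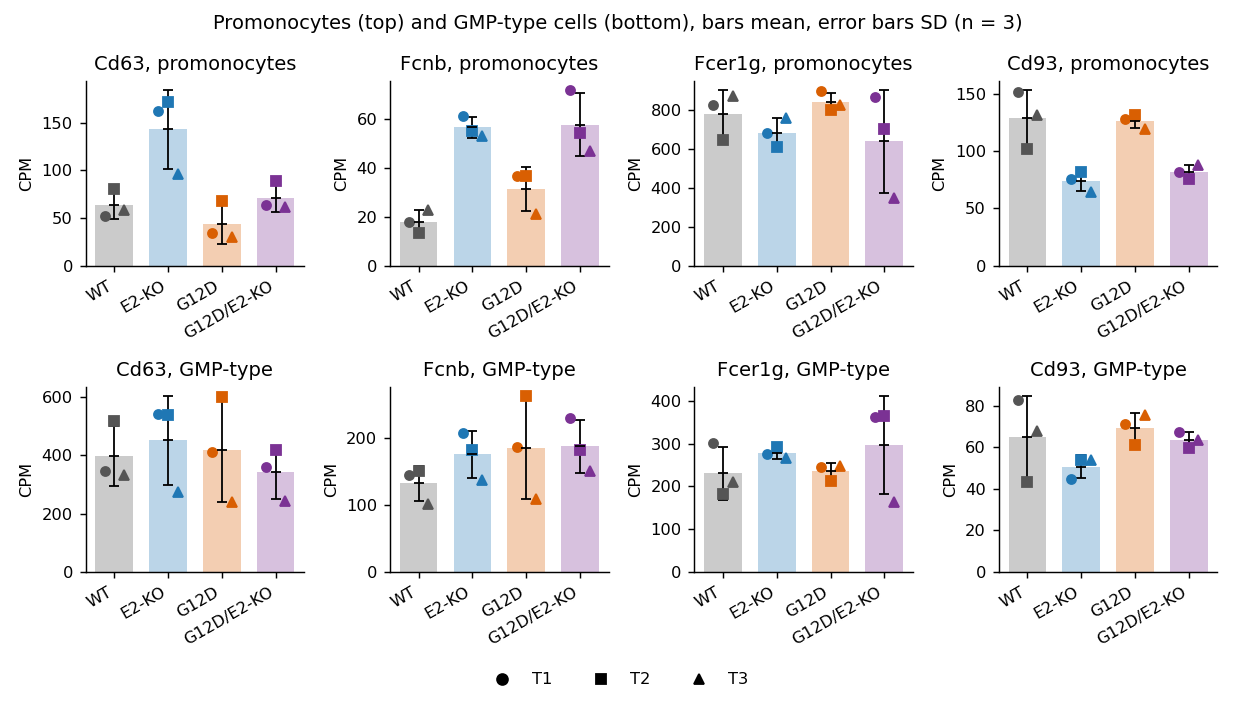
CPM of Cd63, Fcnb, Fcer1g and Cd93 by genotype in promonocytes (top) and GMP-type cells (bottom), with a marker for each time point, bars at the mean and error bars of 1 SD (n = 3). In promonocytes Cd63 is highest in E2-KO and lowest in G12D and Fcnb is higher in both Ezh2-deleted genotypes, while Fcer1g in GMP-type cells lies at 164 to 364 CPM in deleted and 182 to 301.1 CPM in undeleted libraries.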

How the data were processed

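Single-cell RNA sequencing covered c-Kit+ bone marrow cells of 12 libraries, 4 genotypes at 3 time points. The authors made the deposited tables of UMI counts per gene and cell from 10x Genomics 3′ reads with Cell Ranger on mm10, and per the study's methods cells over 10% mitochondrial reads and predicted doublets were removed before deposit. The 27998 genes of each table were used as deposited, with no further filter on cells. No cell type annotation was used. The members and the gene lists were chosen with earlier results of these data known.

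Cells of G12D T1 whose square-root counts over the genes ranked 301 to 8300 by total UMIs had a cosine above 0.9 with a cell of G12D/E2-KO T1 were counted once, in G12D/E2-KO T1 (lowest matched cosine 0.910, highest between other libraries 0.856). Counts were summed per library and class and tested with edgeR 4.0.16 in R 4.3.3 (TMM, filterByExpr, robust quasi-likelihood fit, 6 residual degrees of freedom, genotype and time point as terms). Class differences were fitted over 24 sums with library as a block. CPM is counts per 1000000 UMIs of the class in a library. In each comparison the text names up to 10 genes per direction with the largest log2 change among those past an adjusted p of 0.05, at 20 CPM or more in the higher arm and changed alike in every pair, plus Ezh2, Nras, Irf8 and the members of 25 lists (400 genes) past the threshold; genes of the rule, Xist and Y-linked genes were left out. A few genes that the naming rule takes are not reported here. Fcnb and Cd63 for Ezh2 loss and the values of Csf1r, Klf4 and Ly6c2 were added after their values were seen. Coordinates are from GENCODE on GRCm38 (mm10), promoters from RefSeq on GRCm38.p6. The tests were run on simulated counts with the same dispersion for every gene and no time or library effect. Those counts could not check the blocks.

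Same-numbered libraries share a time point by the labels. Over 1881 genes, deviations of same-time libraries correlated at -0.34 to 0.55 (median 0.14), those of other times at a median of -0.10. Alternatives covered normalization, DESeq2 1.42.0, no filter on low counts, no time block (no library block in the class fits) and the tables as deposited. They also covered the granule limit, the F13a1 minimum, thinning of cells, Xist as a covariate and each library left out. Thinned counts served only to choose the cells and give the shares, and the gene tests summed the full counts of the chosen cells. Leaving out T3 and haemoglobin-rich cells, and thinning to 5000 UMIs, were chosen after seeing the data.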

Additional observations from a re-analysis of the deposited data

Results flagged for a closer look

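The tests of a difference between effects picked out named genes in the promonocyte counts, each by edgeR's quasi-likelihood test with an adjusted p under 0.05. The NRas G12D effect differed between Ezh2-deleted and undeleted mice, as the interaction on the log2 scale, in Lcn2 (1.44), Gdpd3 (-2.06) and Pttg1 (-1.93). The Ezh2 effect differed between promonocytes and GMP-type cells of the same libraries, with a higher change in promonocytes (log2 difference), in Bex4 (2.02), Cpa3 (1.497), Ncam1 (1.46), Cenpv (1.27), Cited4 (1.08), Fcnb (1.02), Cd63 (0.98), Rgcc (0.76), B4galt6 (0.65) and Anxa1 (0.62). It was lower in promonocytes in Slpi (-0.79), Rassf4 (-0.68), Fcer1g (-0.63), Acaa1a (-0.53), Txndc5 (-0.52), Anxa5 (-0.51), Cd93 (-0.47), Anxa2 (-0.46), Cxcr4 (-0.40) and Tyrobp (-0.37). The NRas G12D effect was higher in promonocytes in Chchd10 (0.60), Tmem238 (0.55), Cdv3 (0.41), Tmem14c (0.40), Eef1e1 (0.38) and Ccnd3 (0.37), and lower in Tgif1 (-0.78), Cd63 (-0.63), Pan3 (-0.51) and Rpl3 (-0.21). With cells chosen after thinning to 2000 UMIs and summed at full depth, the differences of Cited4, Cpa3, Rassf4, Anxa2 and Pan3 changed sign. The part of cells that missed the promonocyte rule and were counted as GMP-type was not tested. Pttg1 and Gdpd3 were lowest in the 3 WT libraries, which also differed from the mutants in the absence of Mx1-Cre.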

How the results depend on the processing

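Counts of genes that passed were 428 for Ezh2 loss, 16 for NRas G12D, 153 for G12D/E2-KO against WT, 6 for the interaction, and 54 and 17 for the Ezh2 and NRas G12D class differences, and other settings are given in this order. Without a filter on low counts they were 687, 146, 395, 71, 93 and 39. Without the replicate block they were 276, 0, 98, 1, 5 and 0, where the shares had exact permutation p = 0.212 (Ezh2 loss) and 0.0584 (NRas G12D). That block was time point, or library in the class fits, where genotype and time point took its place. The rule applied after thinning to 2000 UMIs left 12 to 82 promonocytes per library, and their full counts gave 47, 2, 37, 3, 21 and 2. DESeq2 gave 277 for Ezh2 loss and 25 and 4 for the class differences. The tables as deposited gave 253 for Ezh2 loss and 25 for its class difference, 2 or more F13a1 UMIs gave 2 interactions, Xist as a covariate gave 25 for NRas G12D and 11 interactions, and leaving out T3 gave 71 and 22. Leaving out each library gave 227 (without G12D T2) to 520, 4 (without WT T1) to 28, 38 (without WT T3) to 203, 0 (without WT T3) to 12, 32 to 88 and 5 to 35. The cause of these shifts was not tested.

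With cells chosen after thinning to 2000 UMIs, 7 called changes turned: Ctss to 0.052, Cpa3 to -1.98, Cited4 to -0.71, Rassf4 to 0.13, Anxa2 to 0.049, Cebpe to -0.17 and Pan3 to 0.020. Changes that had not passed also turned: Nras to 0.13 for Ezh2 loss and 0.13 for G12D/E2-KO against WT in the cells chosen after thinning, and Irf8 for NRas G12D to 0.0079 with Xist as a covariate and 0.13 without T3. Over the libraries left out, NRas G12D moved Nras by -0.087 to 0.015 and Irf8 by -0.11 to 0.048. Thinning to 2000 UMIs also moved the NRas G12D share difference past the threshold (0.928 points, p = 0.0463, exact permutation), and thinning to 1400 UMIs, which left out 0 cells, did not (0.379 points, p = 0.259, exact permutation). The shares with and without NRas G12D were then 1.714 and 0.786% at 2000 UMIs and 0.818 and 0.439% at 1400 UMIs. Leaving out each library gave 1.97 to 3.67 points for NRas G12D and -3.23 to -1.39 for Ezh2 loss. Of 114 calls of named genes, 24 held in all 24 alternatives and 90 were lost in at least 1, 81 of them apart from thinning. Precision was limited by 101 to 362 promonocytes per library and 1 library per genotype and time.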
